A study of Mus musculus with 8 samples.

Results

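Wdfy3 and 9 core autophagy genes were followed in mouse germ cells enriched for round spermatids, with and without TDRD6. The 9 are Atg5, Atg7, Atg12, Becn1, Ulk1, Ulk2, Map1lc3a, Map1lc3b and Sqstm1. TDRD6 is a tudor domain protein of the chromatoid body, the RNA-rich granule of round spermatids. The genes were picked by gene name from the deposited transcript tables with the values of these data already known. All 10 genes had an entry, among 12200 gene names in the tables. They carry 14 of the 19077 distinct transcripts, 7 genes with a single transcript and 3 (Wdfy3, Sqstm1 and Atg7) with several. Since the same values served to choose the genes, every value below is a description and none was tested.

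RNA was sequenced in 4 Tdrd6-/- and 4 Tdrd6+/- libraries from mice of C57BL/6 background, taken at postnatal day 26. The targeted allele carries the human surface protein hCD4 fused in frame at the Tdrd6 start codon. Mice of both genotypes carry at least 1 such allele, and hCD4-positive cells were collected from the testis of either genotype with magnetic beads. The controls are therefore heterozygotes and not wild type, and the bead step selects cells that use the Tdrd6 promoter and not round spermatids alone. For each transcript the authors deposited 1 FPKM value per genotype (fragments mapped, scaled to the length of the transcript and to the reads of the library), in which Cuffdiff combined the 4 libraries. The authors' own test between the genotypes was not used, so no value given here has a replicate check, an error or a p-value. Libraries were sequenced to an average of 33000000 reads per sample according to the labels, and the reads behind a single FPKM are not known.

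Autophagy wraps cytoplasm, protein aggregates or organelles in a double membrane, the autophagosome, and hands them to the lysosome for breakdown. The ULK kinases start the process, a lipid kinase complex built on Beclin 1 marks the membrane, and a pair of ubiquitin-like conjugation systems (ATG7, ATG12 and ATG5 among their enzymes and products) attaches LC3 proteins to it. Receptors such as p62, the product of Sqstm1, bind LC3 and cargo at once. WDFY3, also called ALFY, is a very large scaffold with BEACH, WD40 and FYVE domains that, in human cells, brings aggregated protein together with p62 and ATG5. In mouse spermatids the pathway is known for its part in forming the acrosome, for which germ cells need Atg7.

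The pair of Wdfy3 transcripts carries the widest difference among these genes, and they are told apart by a single exon. Wdfy3 lies on the minus strand of chromosome 5 (mm9), where Wdfy3-001 (ENSMUST00000053177) spans chr5:102261975-102498940 with 67 exons and Wdfy3-201 (ENSMUST00000043529) spans chr5:102261972-102498940 with 66. Exon 15 of Wdfy3-001, at chr5:102365009-102365092, is missing from Wdfy3-201. It is coding, 84 nt long and worth 28 codons, so that leaving it out keeps the reading frame. The remaining 14190 nt are common to both models (99.4% of Wdfy3-001 and almost all of Wdfy3-201), as are 64 splice junctions. Besides exon 15, only 3 nt at the 3' end differ. The spliced sequences that tell the models apart are given from the GENCODE M1 transcripts on mm9, 15 bases on each side of the junction, read 5' to 3', with bases of exon 15 in capitals.
Wdfy3-001, exon 14 into exon 15: agattcttttgacagCCATGCAGAGCAGAT
Wdfy3-001, exon 15 into exon 16: TCTGTCCAGGAAAAGgcatgcatttcattg
Wdfy3-201, with exon 15 left out: agattcttttgacaggcatgcatttcattg

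Reads that cross these junctions, or lie within exon 15, are nearly the only ones that can assign a fragment to one model or the other. The models also differ in how they were annotated. The annotated coding sequence of Wdfy3-201 is 2736 nt long and ends without a stop codon, which leaves 10912 nt annotated as 3' UTR. Read on from its start codon, however, its frame runs on for 3480 codons, with 3205 nt after the stop. In Wdfy3-001 the frame runs for 3508 codons, followed by a 3' UTR of 3202 nt. Wdfy3-201 was listed both with short and with long 3' UTR transcripts, and Wdfy3-001 with long ones only.

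**Figure D1:**
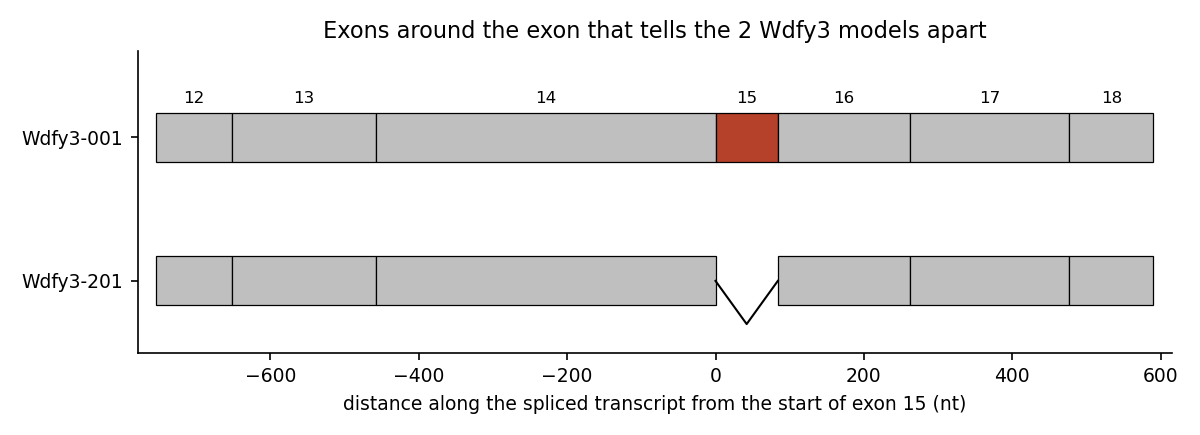
Exons 12 to 18 of Wdfy3-001 (upper row) and the matching exons of Wdfy3-201 (lower row), drawn to scale along the spliced transcript in nt from the start of exon 15. Grey boxes are shared exons, the red box is exon 15 (84 nt), and the bent line marks where Wdfy3-201 joins exon 14 to exon 16.

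Wdfy3-001 had 3.17 FPKM in Tdrd6-/- and 1.03 FPKM in Tdrd6+/- cells, a log2 ratio of 1.62 or 3.07-fold. Wdfy3-201 had 1.26 FPKM in Tdrd6-/- and 2.64 FPKM in Tdrd6+/- cells, a log2 ratio of -1.07. The model with exon 15 was thus the higher one in Tdrd6-/- cells, and the model without it the higher one in Tdrd6+/- cells. Wdfy3-001 made up 71.5% of the listed Wdfy3 FPKM in Tdrd6-/- cells and 28.0% in Tdrd6+/- cells, a difference of 43.5 percentage points. Added together, the 2 transcripts came to 4.42 FPKM in Tdrd6-/- and 3.67 FPKM in Tdrd6+/- cells, a log2 ratio of 0.27. The gene as a whole therefore stayed within 1.5-fold, the size used as the limit for a call throughout (0.58 on the log2 scale, among transcripts with a mean of at least 1 FPKM). GENCODE M1 holds 5 further coding transcripts of Wdfy3 that are not in the tables, and the sum leaves them out.

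Opposite calls within a gene were uncommon over the whole data set and more frequent among near-identical models. Of 3192 genes with several transcripts at a mean of at least 1 FPKM, 103 had transcripts past 1.5-fold in both directions (3.23%), and 21 past 2-fold. The gap between the Wdfy3 models was 2.69 on the log2 scale, and 2.44% of those genes had a gap at least as wide, against a median of 0.42. Among 109 pairs of transcripts that share at least 99% of both sequences, as the Wdfy3 models do, 12 pairs moved past 1.5-fold in opposite directions (11.0%), against 117 of 6362 other pairs (1.84%). In 7.34% of these near-identical pairs the gap was at least that of Wdfy3, compared to 2.04% of the other pairs. How far the division of reads between near-identical models enters the values of Wdfy3 was not tested, nor was the difference between the 2 kinds of pairs.

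Both Wdfy3 models are also among the longest transcripts measured (14274 and 14193 nt), and the log2 ratio varied with length over all transcripts. Its median was -0.31 for transcripts of up to 1000 nt, -0.16 from there to 2000 nt, 0.04 to 3000 nt, 0.19 to 5000 nt, 0.35 to 10000 nt and 0.48 above that. Of the 148 transcripts over 10000 nt, 49 were higher past 1.5-fold in Tdrd6-/- cells (33.1%) and 2 were lower (1.35%). Wdfy3-001 had the second highest ratio of the 148 and Wdfy3-201 the lowest. The other long transcript that was lower past 1.5-fold was Nav2-203, at 0.849 FPKM in Tdrd6-/- and 1.30 FPKM in Tdrd6+/- cells. Relative to the median of their length, the log2 ratio of Wdfy3-001 was 1.14 and that of Wdfy3-201 was -1.55, so both models stayed past 1.5-fold in their own direction.

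**Figure D2:**
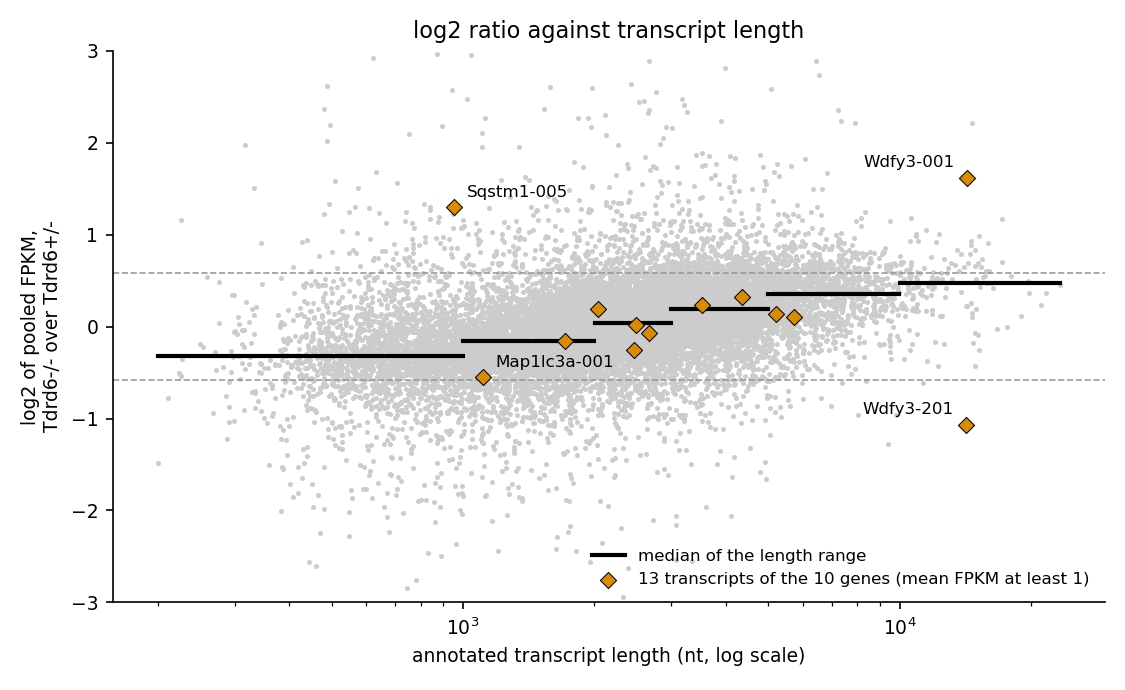
The log2 ratio of pooled FPKM, Tdrd6-/- over Tdrd6+/-, against annotated transcript length (log axis). Grey points are transcripts with a mean of at least 1 FPKM (55 lie outside the axis), black bars the median of each length range, diamonds 13 of the 14 transcripts of the 10 genes, and dashed lines 1.5-fold. The Wdfy3 models lie far above and far below the bar of their length (0.48). Sqstm1-005 (1.30), whose annotated 5' end is incomplete, also lies far above its bar (-0.31), and most other diamonds lie near theirs.

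Of the 14 transcripts, 13 reached a mean of 1 FPKM. Among these, 2 were higher past 1.5-fold in Tdrd6-/- cells (Wdfy3-001 and Sqstm1-005), against a background of 8.59% of 14883 transcripts, and 1 was lower (Wdfy3-201), against a background of 9.14%. The other 10 stayed within 1.5-fold. Their median log2 ratio, over all 13, was 0.10, and that of all transcripts was 0.00. Each transcript enters with its own value, and models of the same gene share sequence. Sqstm1-005, however, covers only 34.5% of Sqstm1-002 and 46.8% of Sqstm1-001.

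**Figure D3:**
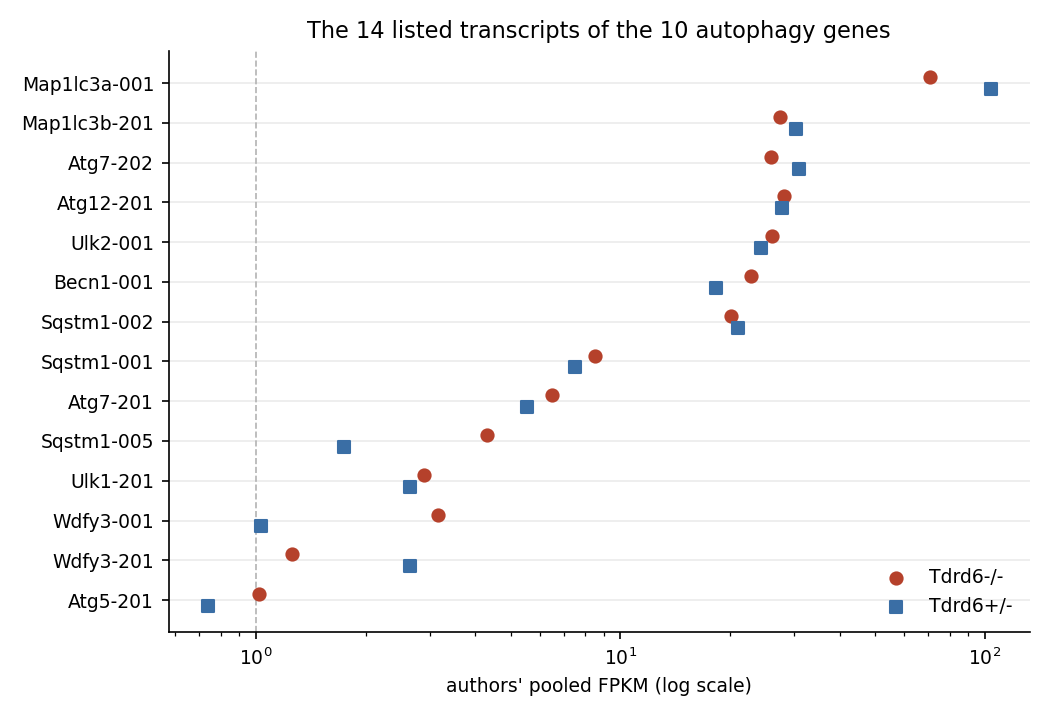
Pooled FPKM (log axis) of the 14 listed transcripts of the 10 genes, with Tdrd6-/- as circles and Tdrd6+/- as squares and the dashed line at 1 FPKM. Circle and square stand far apart and in opposite order for Wdfy3-001 (3.17 and 1.03) and Wdfy3-201 (1.26 and 2.64). They also stand far apart for Sqstm1-005 (4.30 and 1.75), and close together for most others.

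Ulk1 and Ulk2 encode the kinases that start autophagosome formation. Ulk2 (ENSMUST00000004920, chr11:61589151-61668575, minus strand) had 26.0 FPKM in Tdrd6-/- and 24.3 FPKM in Tdrd6+/- cells, a log2 ratio of 0.10. Ulk1 (ENSMUST00000031490, chr5:111213507-111239116, minus strand) had 2.89 FPKM in Tdrd6-/- and 2.64 FPKM in Tdrd6+/- cells, a log2 ratio of 0.13. Ulk2 was the more abundant kinase transcript in both genotypes, and neither was past 1.5-fold. The other subunits of the complex also lay close to equal levels. All 5 genes of the list were measured and none was past 1.5-fold, where 5.99% of 10283 genes were higher and 7.60% lower when each gene was taken by its most abundant transcript. The highest ratio was that of Rb1cc1, the scaffold FIP200, at 23.6 FPKM in Tdrd6-/- and 21.3 FPKM in Tdrd6+/- cells (log2 0.14). The lowest was that of Atg101, listed as 9430023L20Rik, at 8.59 FPKM in Tdrd6-/- and 9.97 FPKM in Tdrd6+/- cells (log2 -0.22).

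Becn1 encodes Beclin 1, a subunit of the class III phosphatidylinositol 3-kinase complex. Its listed transcript (ENSMUST00000130916, chr11:101147266-101163600, minus strand) had 22.8 FPKM in Tdrd6-/- and 18.3 FPKM in Tdrd6+/- cells, a log2 ratio of 0.32. This was the highest ratio among the 10 measured genes of the complex and its regulators, none of which was past 1.5-fold (1 was lower past it relative to the median of the same length, Pik3c3). Over all genes, 5.99% were higher past 1.5-fold and 7.60% lower. Pik3c3, the catalytic subunit VPS34, had the lowest ratio of the list, at 2.20 FPKM in Tdrd6-/- and 3.15 FPKM in Tdrd6+/- cells (log2 -0.52). The regulatory and the catalytic subunit thus lay on opposite sides of 0. GENCODE M1 holds 8 further coding transcripts of Becn1 that were not used here.

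Atg7 encodes the activating enzyme of both conjugation systems, and Atg12 and Atg5 the proteins it helps to join. Atg7-202 (ENSMUST00000169310, chr6:114593151-114809239, plus strand), with a 3' UTR of 198 nt, had 25.9 FPKM in Tdrd6-/- and 30.9 FPKM in Tdrd6+/- cells, a log2 ratio of -0.26. Atg7-201 (ENSMUST00000032457, chr6:114593149-114810431, plus strand), with a 3' UTR of 1390 nt, had 6.50 FPKM in Tdrd6-/- and 5.53 FPKM in Tdrd6+/- cells, a log2 ratio of 0.23. Both models hold the same coding length of 2097 nt and differ by a 5' exon of 121 nt and by 1192 nt at the 3' end. The model with the shorter 3' UTR made up 80.0% of Atg7 in Tdrd6-/- cells and 84.8% in Tdrd6+/- cells. Their sum was 32.4 FPKM in Tdrd6-/- and 36.5 FPKM in Tdrd6+/- cells (log2 -0.17), so that Atg7 was within 1.5-fold by either model and as a whole.

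Atg12 (ENSMUST00000035648, chr18:46892071-46901233, minus strand) was the closest to equal, with 28.1 FPKM in Tdrd6-/- and 27.7 FPKM in Tdrd6+/- cells (log2 0.02). Atg5 (ENSMUST00000039286, chr10:43988164-44084097, plus strand) had 1.02 FPKM in Tdrd6-/- and 0.738 FPKM in Tdrd6+/- cells (log2 0.47), a mean below 1 FPKM, and was left out of the counts. It was the least abundant of the 10 genes in both genotypes. Of the other genes of this list, Atg10, Atg16l1 and Atg16l2 were below a mean of 1 FPKM as well. Of the 7 genes above it, none was past 1.5-fold, where 5.99% of all genes were higher and 7.60% lower. Atg4c and Atg4d, proteases that process LC3 proteins, marked the ends of the range, with Atg4c at 5.75 FPKM in Tdrd6-/- and 4.18 FPKM in Tdrd6+/- cells (log2 0.46) and Atg4d at 32.1 FPKM in Tdrd6-/- and 39.0 FPKM in Tdrd6+/- cells (log2 -0.28).

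The LC3 and GABARAP proteins, which are attached to the autophagosome membrane, all had lower FPKM in Tdrd6-/- cells (4 of the 5 relative to the median of the same length, with Map1lc3b on the other side). Map1lc3a (ENSMUST00000029128, chr2:155102033-155103809, plus strand) was the most abundant of the 10 genes, with 70.8 FPKM in Tdrd6-/- and 103.7 FPKM in Tdrd6+/- cells. Its log2 ratio was -0.55, just short of 1.5-fold. Map1lc3b (ENSMUST00000034270, chr8:124114368-124121947, plus strand) had 27.3 FPKM in Tdrd6-/- and 30.4 FPKM in Tdrd6+/- cells, a log2 ratio of -0.15. Among the relatives, Gabarapl1 was lower past 1.5-fold, with 56.0 FPKM in Tdrd6-/- and 88.6 FPKM in Tdrd6+/- cells (log2 -0.66), though not relative to the median of the same length. Gabarap (log2 -0.36) and Gabarapl2 (log2 -0.25) were not past it.

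All 5 genes of this group had a log2 ratio below 0 with no centring, and also relative to the median of all transcripts or of the same 3' UTR table, but only 4 of them relative to the median of the same length, where Map1lc3b moved to 0.005. Their median was -0.36 (-0.09 relative to length), and the median of all genes was -0.01. They are short transcripts, with a median length of 1677 nt. Transcripts of sperm formation were lower in the same cells. All 10 late spermatid markers had a ratio below 0, with 7 past 1.5-fold (7.60% of all genes were lower past it) and a median of -0.91. They are short as well (median 804.5 nt), and all transcripts of up to 1000 nt had a median of -0.31. Their summed level was 6763 FPKM in Tdrd6-/- and 22740 FPKM in Tdrd6+/- cells. Protamine and transition protein genes led the sum, with Tnp1 highest at 1840 FPKM in Tdrd6-/- and 6466 FPKM in Tdrd6+/- cells. Of 13 round spermatid and acrosome markers (median length 1311 nt), 5 were lower past 1.5-fold, against the same 7.60%. Their median was -0.42, where all transcripts over 1000 to 2000 nt had -0.16. Their summed level was 2012 FPKM in Tdrd6-/- and 2769 FPKM in Tdrd6+/- cells. The marker values are given without centring on length. In bulk RNA a smaller share of such cells and less RNA per cell cannot be told apart, and the part of cell composition in the values of the autophagy genes was not tested. By flow cytometry, in representative plots, the paper reported similar shares of round spermatids, and of spermatocytes, in such preparations from both genotypes. Its text gives no share for later spermatids. It also cites earlier work in which germ cells without TDRD6 stopped developing between round and elongated spermatids.

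Sqstm1 encodes p62, the receptor that links ubiquitinated cargo to LC3. Sqstm1-002 (ENSMUST00000015981, chr11:50012868-50024293, minus strand) had 20.1 FPKM in Tdrd6-/- and 21.0 FPKM in Tdrd6+/- cells, a log2 ratio of -0.06. Sqstm1-001 (ENSMUST00000102774, chr11:50013654-50024329, minus strand) had 8.53 FPKM in Tdrd6-/- and 7.49 FPKM in Tdrd6+/- cells, a log2 ratio of 0.19. These full-length models made up most of the gene in both genotypes and were within 1.5-fold. Sqstm1-005 (ENSMUST00000136936, chr11:50013669-50016456, minus strand) had 4.30 FPKM in Tdrd6-/- and 1.75 FPKM in Tdrd6+/- cells, a log2 ratio of 1.30. It was the only Sqstm1 model past 1.5-fold, and made up 13.1% of the gene in Tdrd6-/- cells and 5.78% in Tdrd6+/- cells. The median log2 ratio of its length range, up to 1000 nt, was -0.31, so it also lay far from its median. The annotated 5' end of this model is incomplete, however, so its RNA may belong to a longer range. Sqstm1-001 and Sqstm1-002 fall in the range over 2000 to 3000 nt, with a median of 0.04.

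The Sqstm1 models differ in the splicing of exon 7 and at their ends. Sqstm1-002 splices out of exon 7 at an early donor and so lacks 114 nt (38 codons, chr11:50015901-50016014) that Sqstm1-001 keeps, and it reaches 786 nt further at the 3' end. Sqstm1-005 is 953 nt long and is annotated with an incomplete 5' end. All of its bases lie within Sqstm1-001, but it enters exon 7 at an acceptor 165 nt inside the exon. The spliced junctions from the GENCODE M1 transcripts on mm9 are shown for comparison, 15 bases on each side and 5' to 3', with bases that Sqstm1-002 lacks in capitals in the first.
Sqstm1-001, exon 7 from its last donor into exon 8: CACATCTCCCACCAGaggctgatccccggc
Sqstm1-002, exon 7 from its early donor into exon 8: tggacccatctacagaggctgatccccggc
Sqstm1-005, exon 6 into the inner acceptor of exon 7: gtgggacagccagaggaagctgccctatac

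Since every base of Sqstm1-005 also belongs to Sqstm1-001, only reads over its own junction are particular to it, and its value is uncertain for that reason. The 3 models together came to 32.9 FPKM in Tdrd6-/- and 30.2 FPKM in Tdrd6+/- cells (log2 0.12), within 1.5-fold. Taken by summed FPKM, none of the 10 genes was past 1.5-fold in either direction, where 5.07% of 10482 genes were higher and 6.88% lower.

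**Figure D4:**
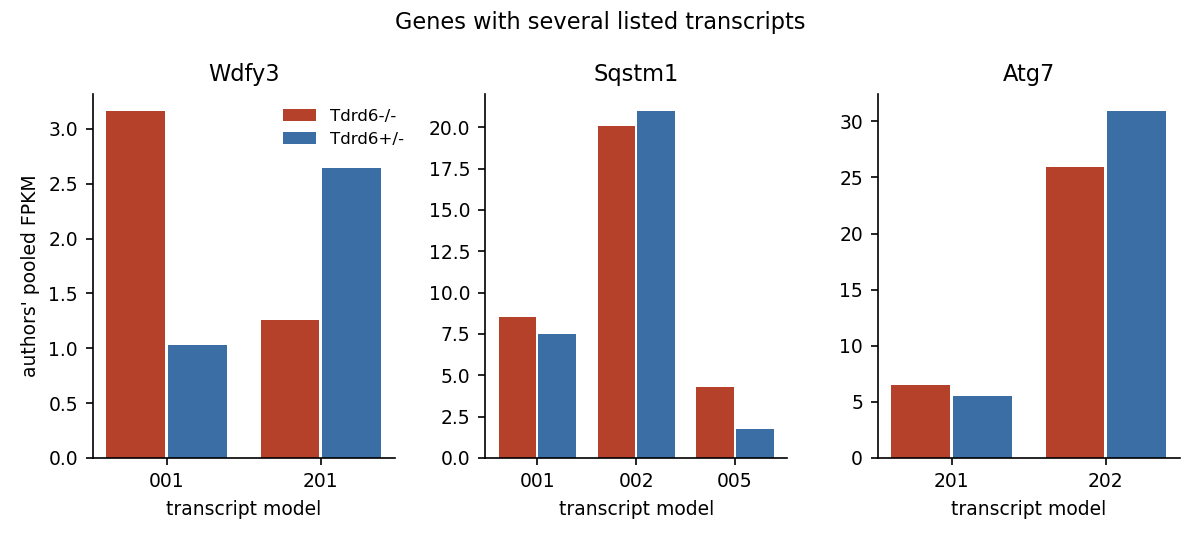
Pooled FPKM of each listed transcript model of Wdfy3, Sqstm1 and Atg7, with Tdrd6-/- on the left of each pair and Tdrd6+/- on the right; each panel has its own axis from 0. Wdfy3 shows opposite order in its models, Sqstm1 differs mainly in model 005 (4.30 and 1.75), and Atg7 differs little in either.

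By summed FPKM, which is scaled to length, Map1lc3a was first and Atg5 last of the 10 genes in both genotypes. Ulk2, Becn1, Wdfy3 and Ulk1 also held the same place in both, from the sixth to the ninth. Between 22.8 and 32.9 FPKM in Tdrd6-/- cells, and between 18.3 and 36.5 FPKM in Tdrd6+/- cells, stood Atg7, Sqstm1, Map1lc3b, Atg12, Ulk2 and Becn1. The order of Atg7, Sqstm1, Map1lc3b and Atg12 differed between the genotypes. With no spread between libraries, none of these neighbours can be said to differ.

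Each by its transcript of the highest mean FPKM, the receptors and adaptors that pick cargo stayed within 1.5-fold but for 1 gene. Over all genes, 5.99% were higher past 1.5-fold and 7.60% lower. Wdfy3 and Sqstm1 belong to this list. Of 13 measured genes, 11 had a log2 ratio above 0 (10 relative to the median of the same length), where 49.3% of all genes did, with a median of 0.31 (0.20 relative to length). Only Wdfy3 was past 1.5-fold, through its transcript of the highest mean, Wdfy3-001. The mean of the oppositely placed Wdfy3-201 was nearly as high (1.95 FPKM). Relative to length, 2 genes were past 1.5-fold, Wdfy3 and Bnip3, a receptor for mitochondria. Bnip3 had 5.23 FPKM in Tdrd6-/- and 3.71 FPKM in Tdrd6+/- cells (log2 0.50). With all 24 transcripts of the list counted, 3 were higher and 2 lower past 1.5-fold, Sqstm1-005 among the higher. With FPKM summed per gene, none was past it.

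Among genes that deliver membrane and lipid, 1 of 9 was past 1.5-fold, where 5.99% of all genes were higher and 7.60% lower. The called gene was Atg2b, a lipid transfer protein, with 6.05 FPKM in Tdrd6-/- and 3.72 FPKM in Tdrd6+/- cells (log2 0.70). Its transcript is long (10173 nt), and the list held no gene past 1.5-fold relative to the median of the same length or with FPKM summed per gene. Of 12 genes of fusion with the lysosome, Vps39, a subunit of the HOPS tether, was higher past 1.5-fold with 7.04 FPKM in Tdrd6-/- and 4.20 FPKM in Tdrd6+/- cells (log2 0.75). Vamp8, a SNARE of the lysosome side, was lower with 1.80 FPKM in Tdrd6-/- and 2.89 FPKM in Tdrd6+/- cells (log2 -0.69). These also stayed within 1.5-fold relative to length.

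Upstream control had 1 gene of 13 past 1.5-fold, Mtor, the kinase that holds autophagy back when nutrients are plentiful. Over all genes, 5.99% were higher past 1.5-fold and 7.60% lower. Mtor-001 had 36.1 FPKM in Tdrd6-/- and 20.5 FPKM in Tdrd6+/- cells (log2 0.81), and was within 1.5-fold relative to its length of 8564 nt. The short model Mtor-002 (1003 nt) had 4.09 FPKM in Tdrd6-/- and 7.54 FPKM in Tdrd6+/- cells (log2 -0.88). With FPKM summed per gene, Mtor lost its call and no gene of the list was past 1.5-fold, and the list's median of 0.06 became -0.05. Mtor and Wdfy3 were the only genes of the autophagy lists with transcripts past 1.5-fold in both directions. Over the whole data set, 3.23% of the genes with several transcripts had this. The number of autophagy genes with several transcripts is not given here, so no share for the lists can be set beside it. The lysosome list had none of its 6 measured genes past 1.5-fold, between Lamp1, a membrane protein, at 277.2 FPKM in Tdrd6-/- and 266.3 FPKM in Tdrd6+/- cells (log2 0.06), and Hexa, a hydrolase subunit, at 87.7 FPKM in Tdrd6-/- and 103.4 FPKM in Tdrd6+/- cells (log2 -0.24).

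Over all these lists, 80 of 99 genes reached a mean of 1 FPKM. Of these, 4 were higher and 2 lower past 1.5-fold, where 5.99% and 7.60% of all genes were, and their median log2 ratio was 0.09. Without the 10 genes described first, 71 genes were left, with 3 higher, 2 lower and a median of 0.09.

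**Figure D5:**
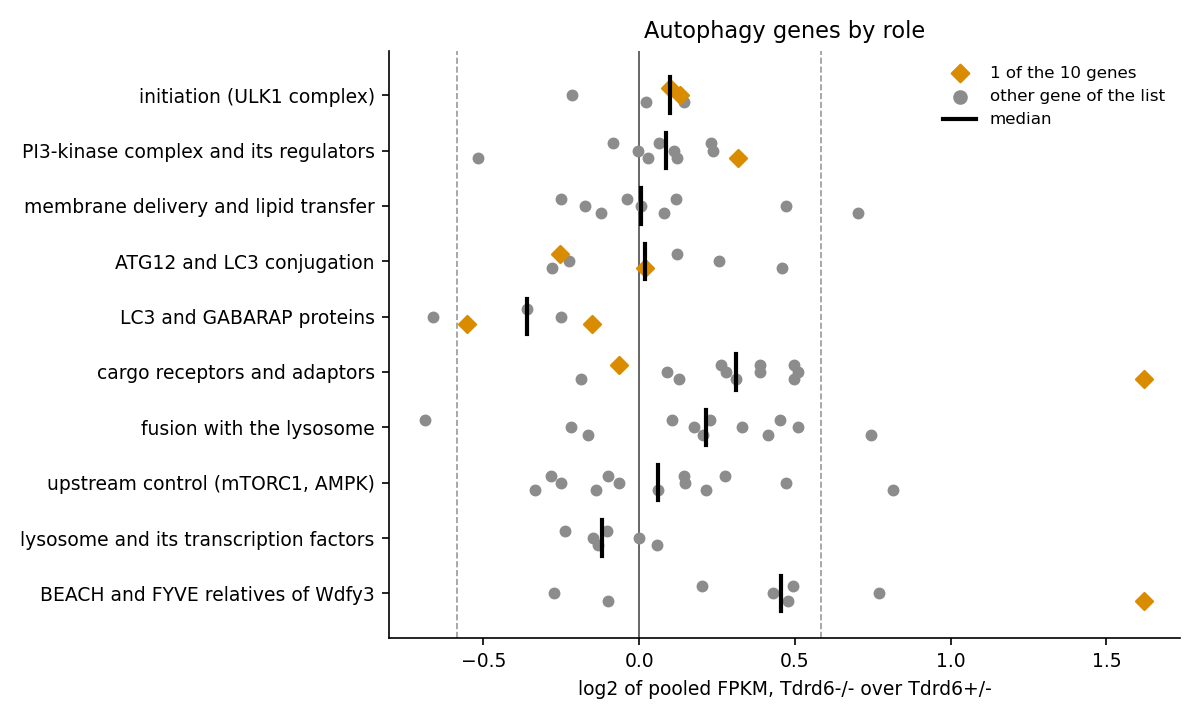
The log2 ratio of pooled FPKM, Tdrd6-/- over Tdrd6+/-, of autophagy genes by role and of the relatives of Wdfy3, each gene by its transcript of the highest mean FPKM. Diamonds are the 10 genes (Atg5 is below 1 FPKM and not drawn), black bars the medians and dashed lines 1.5-fold. The LC3 and GABARAP proteins lie left of 0 (median -0.36; relative to length Map1lc3b moves past 0), the cargo receptors mostly right of it (0.31), and Wdfy3-001 stands alone at 1.62.

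Genes related to Wdfy3 by a BEACH or a FYVE domain were set beside it. Of 8 measured, each by its transcript of the highest mean FPKM, 6 had a ratio above 0 and 2 were higher past 1.5-fold (Wdfy3 itself and Wdfy4), where 5.99% of all genes and 33.1% of transcripts over 10000 nt were. Wdfy4 had 1.92 FPKM in Tdrd6-/- and 1.12 FPKM in Tdrd6+/- cells (log2 0.77). Lyst (log2 0.50), Wdfy2 (0.48), Nbea (0.43) and Nsmaf (0.20) were above 0, and Lrba (-0.10) and Wdfy1 (-0.27) below. Many of these transcripts are long (median 9954 nt), and the median of the group was 0.45, or 0.02 relative to the median of the same length, where 5 were above 0 and only Wdfy3 was past 1.5-fold. The direction of the group turned when every one of its 15 transcripts was counted, with 6 above 0, a median of -0.09, and 2 higher and 2 lower past 1.5-fold. Nbeal1 and Nbeal2 were below a mean of 1 FPKM.

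The transcripts whose values came closest to those of Wdfy3, by Euclidean distance over log2 FPKM in the 2 genotypes, belong to other genes. Nearest to Wdfy3-001 were Synj2-011, with 3.29 FPKM in Tdrd6-/- and 1.05 FPKM in Tdrd6+/- cells (distance 0.06), Clcn3-002 (0.07) and Gnao1-011 (0.08). Nearest to Wdfy3-201 were Mob2-201, with 1.22 FPKM in Tdrd6-/- and 2.70 FPKM in Tdrd6+/- cells (distance 0.05), Sept2-001 (0.07) and Acap1-002 (0.08). With only 2 values per transcript this is a likeness of level and ratio and no more.

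As a check of the labels, Tdrd6 itself had 3 listed transcripts. Tdrd6-202 had 1.29 FPKM in Tdrd6-/- and 40.6 FPKM in Tdrd6+/- cells, and Tdrd6-001 had 0.174 FPKM in Tdrd6-/- and 16.0 FPKM in Tdrd6+/- cells. Tdrd6-201 is listed at 0 in Tdrd6-/- and at 0.540 FPKM in Tdrd6+/- cells. All 10 measured markers of pachytene and diplotene spermatocytes were within 1.5-fold, with 6 above 0 and a median log2 ratio of 0.20. Their summed level was 6506 FPKM in Tdrd6-/- and 7872 FPKM in Tdrd6+/- cells, most of it from Ldhc, at 4194 FPKM in Tdrd6-/- and 5634 FPKM in Tdrd6+/- cells. Markers of other testis cells were low. Sertoli cell markers (5 of 9 listed) summed to 37.7 FPKM in Tdrd6-/- and 41.0 FPKM in Tdrd6+/- cells. Clu led that sum, with 21.4 FPKM in Tdrd6-/- and 23.1 FPKM in Tdrd6+/- cells. Leydig cell markers (5 of 6 listed) summed to 26.6 FPKM in Tdrd6-/- and 27.8 FPKM in Tdrd6+/- cells. Of these, 3 were above 0, with a median log2 ratio of 0.32 and the sum led by Insl3. Spermatogonium markers (7 of 8 listed) summed to 7.74 FPKM in Tdrd6-/- and 9.41 FPKM in Tdrd6+/- cells. Only 3 of them reached a mean of 1 FPKM, with 2 above 0 and a median log2 ratio of 0.11. Acta2 was the only peritubular or vascular marker listed, and Lyz2, below 1 FPKM in both genotypes, the only blood or immune marker.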

How the data were processed

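The 4 Tdrd6-/- and 4 Tdrd6+/- RNA-seq libraries were read as single ends, of 76 bases according to the series description. The study's methods give a slightly shorter read. The sample labels describe poly-dT selection, and the study's methods removal of ribosomal RNA. According to the submitters' processing notes, reads were aligned to mm9 using TopHat2 2.0.9 with Bowtie2 and quantified using Cufflinks 2.1.1 and Cuffdiff; the annotation was Ensembl 67 per the methods. The FPKM values were deposited by the authors as 1 value per genotype, in 3 tables split at 3' UTR lengths of 350 and 1500 nt. The authors' own columns of fold change, test statistic, p-value and q-value were not used. Depth per library is not in the tables, so the precision of a value is unknown.

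Each transcript identifier was taken once (19882 entries, 19077 transcripts, 793 of them in more than 1 table). The log2 of Tdrd6-/- over Tdrd6+/- was taken with no pseudocount, and called past 1.5-fold among transcripts with a mean of at least 1 FPKM. For the wider lists, the most abundant transcript by mean FPKM stood for its gene. The genes and lists were chosen with earlier results of these data known. Named are the 10 genes, genes of each list past 1.5-fold or, where there were none, the highest and the lowest, the relatives of Wdfy3, Tdrd6, and the 3 transcripts nearest to each Wdfy3 model. Lengths, exons and sequences came from GENCODE M1 (mm9), which held 18860 of the transcripts. Bnip3, Nav2, Mtor-002, Ldhc, Insl3 and Acta2 were named after their values were seen. Some gene names in the tables had been turned into dates, and Sept2 was named from GENCODE. Python 3.11.15, pandas 2.3.3, numpy 2.4.6 and matplotlib 3.10.9 were used. Alternatives were a pseudocount of 0.1 or 1, a 2-fold limit, no filter or a mean of at least 5, another unit, and centring on the median of all transcripts or of the same 3' UTR table. Centring on length, leaving out transcripts in more than 1 table and summing per gene were added after the data were seen.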

Additional observations from a re-analysis of the deposited data

How the results depend on the processing

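The log2 ratios of Wdfy3-001 (1.62) and Wdfy3-201 (-1.07) stayed past 1.5-fold in the same direction with each pseudocount, at 2-fold, without the filter and under each centring in which they entered, between 1.04 and 1.62 for Wdfy3-001 and between -1.55 and -0.69 for Wdfy3-201. Summed per gene, both give way to 0.27, because the sum adds opposite changes. The 2 higher and 1 lower transcripts of the 10 genes became 0 and 0 at a mean of at least 5 FPKM or as sums, and 1 and 0 with 1 transcript per gene. Without transcripts in more than 1 table, 0 were lower, since Wdfy3-201 is then left out. Their median of 0.10 was -0.090 relative to the same 3' UTR table and -0.018 relative to the same length. The wider lists, with 4 higher and 2 lower, had 1 and 0 at 2-fold, 2 and 1 at a mean of at least 5 FPKM or relative to the same 3' UTR table or length, and 7 and 7 with every transcript. With 1 added to each FPKM 1 was lower, and the membrane delivery list lost its higher call. With no filter 4 were lower, and the conjugation and lysosome lists each gained 1 higher call. As sums 1 was higher, with the lower calls unchanged. The median of the wider lists, 0.09, was -0.029 relative to length. No paired analysis was possible because the tables hold 1 pooled value per genotype, and leaving out replicates was not run for the same reason. Without values per library, and with the authors' own test columns not used, no difference was set against biological spread. Reads per transcript are unknown.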
